A study of Mus musculus with 46 samples.

Results

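Colony-stimulating factors (CSFs) are the cytokines that govern the survival, growth and maturation of the myeloid lineage. Macrophage CSF (Csf1) and interleukin 34 (Il34) share a single receptor, the tyrosine kinase encoded by Csf1r, which macrophages and monocytes need to survive in most tissues. Granulocyte-macrophage CSF (Csf2) signals through a specific alpha chain (Csf2ra) and a beta chain (Csf2rb), and granulocyte CSF (Csf3) signals through a homodimer of Csf3r, best known on neutrophils and also present on monocytes. In mice a second beta chain, Csf2rb2, serves the interleukin 3 receptor. Carcinoma cells can secrete CSF ligands while the receptors sit on host leukocytes, so the ligands and receptors were described here as separate groups in MC-38 tumors with and without PD-1 blockade.

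The 8 genes were taken by name: the ligands Csf1, Csf2, Csf3 and Il34, and the receptors Csf1r, Csf2ra, Csf2rb and Csf3r, out of 48795 genes measured by RNAseq in 46 samples. MC-38 is a colon carcinoma line of C57BL/6 origin, and 3 cultures of it were sequenced beside 43 subcutaneous tumors. In the antibody study, the mice were female C57BL/6NTac of 8 to 10 weeks. They gave 3 tumors labelled baseline, with no day or dose in the labels. Further tumors were taken 4 days after a single dose or 8 days after the first of 2 doses, 5 tumors in each of 4 groups. The doses were of the PD-1 antibody muDX400 (PD-1 Ab, 5 mg/kg a dose) or of an isotype control. In the knockout study, also of female mice of 8 to 10 weeks, 10 tumors came from PD-1cKO mice, which carry ROSA26creERT2 and Pdcd1 with exons 2 and 3 flanked by loxP sites, and 10 from littermates labelled WT. Both received tamoxifen at 40.0 mg/kg on 5 days, so tamoxifen exposure is common to both groups. Cre from the Rosa26 locus is active in most cell types, so the design did not restrict the deletion to T cells. Its extent in other cells was not tested here. The labels place these tumors at 28 days and the study's methods at day 22 after implant. MC-38 is 1 line, and nothing in the labels ties samples of the same number together.

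Values are deposited FPKM, read pairs scaled to transcript length and to the total of the library, which are per length and so allow levels of different genes to be set side by side within a sample. The study's methods give only a range of mapped reads over all samples, and the depth of each library is not given in the sources used here. Short noncoding RNAs took 30.2% to 66.5% of the summed FPKM in the knockout study and at most 0.082% in the antibody study, so FPKM levels are not on 1 scale across the studies. The tumor of isotype control replicate 1 after 1 dose stood apart, with 54.6% of its FPKM in mitochondrial genes against 2.89% to 7.65% in the other samples of the antibody study, and results that rest on it are given with and without it. Pdcd1 itself, the gene for PD-1, was at 5.05 to 19.9 FPKM in the PD-1cKO tumors and 1.71 to 7.02 in WT; a value over the whole gene does not check the deletion of 2 exons.

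The cultures held the ligand side of the family and hardly any of the receptor side. Csf1 was at 154, 156 and 144 FPKM in the 3 cultures, which placed its mean at rank 482 of the 13681 genes at 0.5 FPKM or more there. Il34 was at 14, 11.3 and 13.1 FPKM, so that Csf1 made up 92.2% ± 0.932 (SD, n = 3) of the summed Csf1 and Il34. Csf2 was at 0.0903, 0.118 and 0.141 FPKM and Csf3 at 0.179, 0.0666 and 0.106. Both were low in every culture. Csf2ra, Csf2rb and Csf3r were listed at 0 in all 3 cultures, and so was Csf2rb2. Csf1r was at 1.75, 1.74 and 1.76 FPKM, the only one of the 4 receptors with a value. Csf1r overlaps Hmgxb3 on the opposite strand, which was at 11.4 FPKM ± 0.555 in the cultures, and 14.3% of the 50-base stretches of Csf1r also lie in Hmgxb3. Whether the counting used strand is not given in the sources used here, and without strand the reads of the 2 genes in their shared stretch cannot be told apart.

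**Figure D1:**
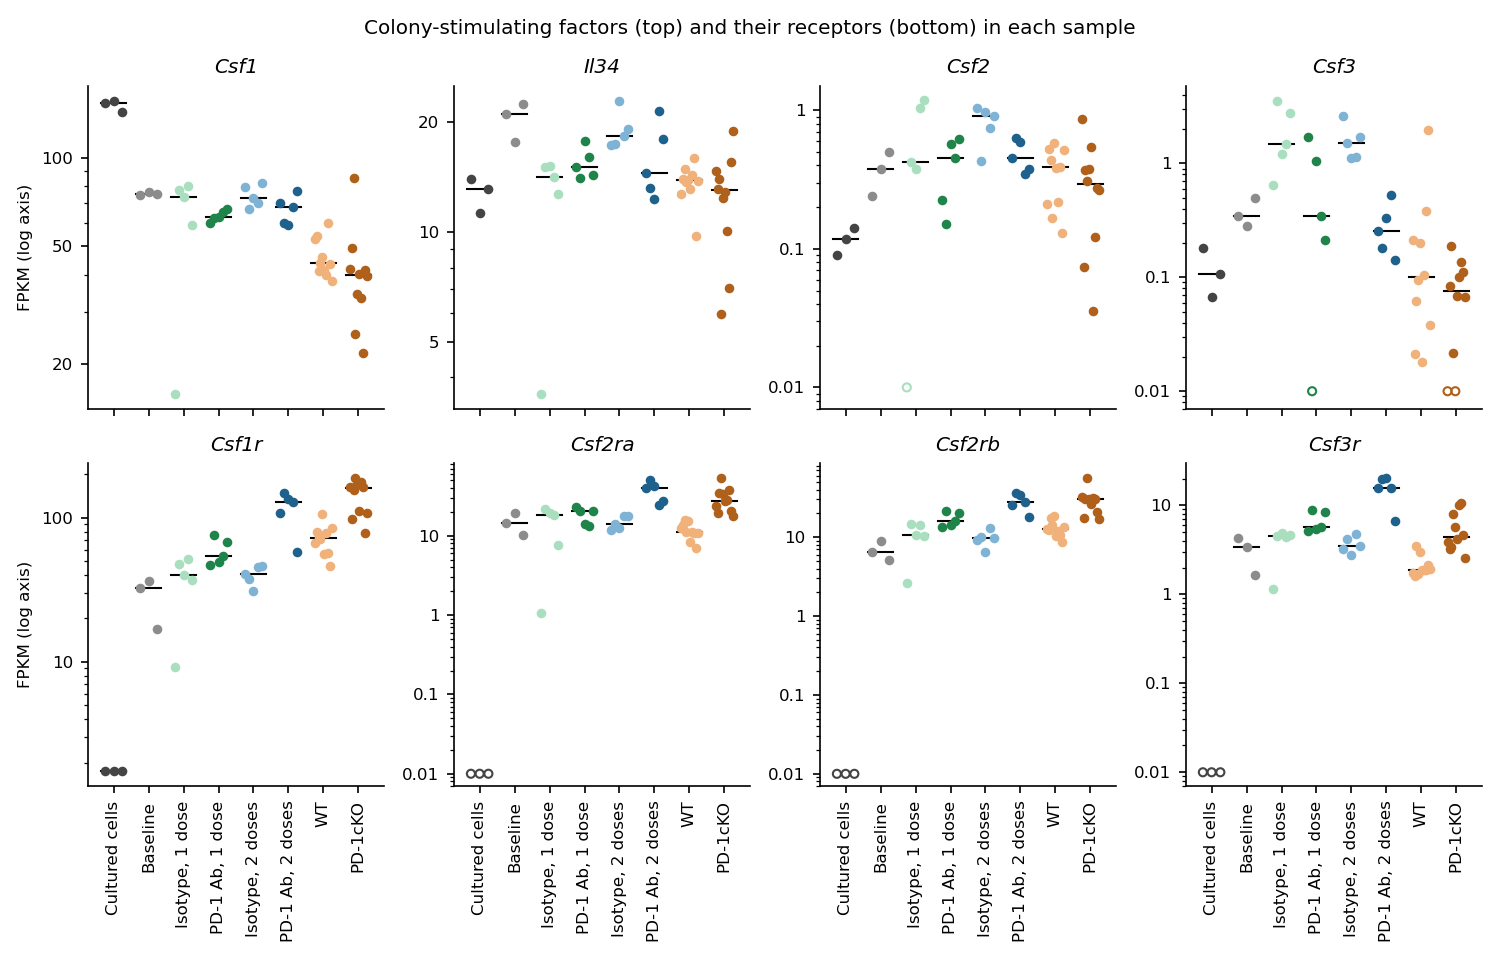
Deposited FPKM of each ligand (upper row) and receptor (lower row) by sample, on a log axis, for the 8 groups; each point is 1 sample, the horizontal line is the group median, and open circles at 0.01 stand for samples listed at 0. Csf1 is highest in the 3 cultures, where Csf2ra, Csf2rb and Csf3r are listed at 0, and the 4 receptors are highest in the PD-1 Ab tumors after 2 doses or in the PD-1cKO tumors.

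In GRCm38 coordinates from the Ensembl annotation, Csf1 spans chromosome 3 from 107741048 to 107760469 on the minus strand, Csf2 chromosome 11 from 54247271 to 54249667 on the minus strand, Csf3 chromosome 11 from 98701263 to 98703629 on the plus strand, and Il34 chromosome 8 from 110741829 to 110805924 on the minus strand. Of the receptor genes, Csf2ra spans chromosome 19 from 61223957 to 61228429 on the minus strand, Csf2rb chromosome 15 from 78325752 to 78353847 on the plus strand, and Csf3r chromosome 4 from 126024550 to 126044440 on the plus strand. Csf2rb2 lies beside Csf2rb on the opposite strand, from 78282507 to 78305721. Csf2 and Il34 each overlap antisense RNAs, Gm12223 for Csf2 and Gm15894 and Gm15895 for Il34. Of the 50-base stretches of Csf2rb transcripts, 12.3% also occur in other genes, nearly all in Csf2rb2, and of those of Csf3r, 10.7% do; the values of these genes carry that uncertainty, whereas Csf1, Csf3 and Csf2ra share none.

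The 250 bases before the start were examined in the RefSeq promoter table (GRCm38.p6) for 5 of the genes. They are shown for Csf1, the ligand that the cultures express, and for Csf2ra and Csf2rb2, receptor chains that were listed at 0 in cultures and rose under PD-1 blockade. Capitals mark the PU.1 core (GAGGAA on either strand), the motif of the myeloid factor encoded by Spi1, and the NF-kB motif (GGGA, any 4 bases, then CC on either strand).
Csf1, chr3:107760470-107760719, minus strand: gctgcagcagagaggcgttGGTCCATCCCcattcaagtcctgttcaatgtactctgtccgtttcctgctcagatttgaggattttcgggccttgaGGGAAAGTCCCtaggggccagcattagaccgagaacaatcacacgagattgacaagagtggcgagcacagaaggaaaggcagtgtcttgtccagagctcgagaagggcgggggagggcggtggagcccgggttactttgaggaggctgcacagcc
Csf2ra, chr19:61228419-61228668, minus strand: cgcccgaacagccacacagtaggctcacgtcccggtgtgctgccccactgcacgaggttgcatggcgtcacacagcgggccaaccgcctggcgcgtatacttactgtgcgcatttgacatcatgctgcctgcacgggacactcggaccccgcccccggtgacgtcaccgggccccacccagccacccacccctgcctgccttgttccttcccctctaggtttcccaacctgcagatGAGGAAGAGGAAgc
Csf2rb2, chr15:78305722-78305971, minus strand: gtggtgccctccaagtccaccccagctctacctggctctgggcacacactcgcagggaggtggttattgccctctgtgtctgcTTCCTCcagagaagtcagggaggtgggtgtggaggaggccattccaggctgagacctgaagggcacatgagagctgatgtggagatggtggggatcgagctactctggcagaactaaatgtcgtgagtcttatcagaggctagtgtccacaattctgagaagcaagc
The Csf1 window held 3 matches to the NF-kB letters, starting at -231, -155 and -154 from the start, the last 2 of which overlap. The Csf2ra window held 2 adjacent PU.1 cores, starting at -14 and -8, where the 11 bases next to the start lie in an annotated exon and so hold the second core and the end of the first, and the Csf2rb2 window held 1, read on the strand opposite to the gene from -167 to -162. The Csf3r window held 1 PU.1 core starting at -86 and 1 NF-kB match starting at -129; it is not printed, because 109 of its bases fall in an annotated exon. The Csf2 window, chr11:54249900-54250149, held neither. It lies upstream of, and not next to, the Ensembl end of this minus-strand gene at 54249667. The bases directly before that position were not examined. Over all 32851 promoter windows of this length, 23.3% held the PU.1 core and 17.6% the NF-kB letters, so single matches are common, and a match is a description of the letters only.

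Growth as a tumor was accompanied by lower Csf1 and the appearance of the receptors. Of the 8 genes, 7 were called in isotype control tumors after 2 doses against cultures, 6 higher and Csf1 lower, by limma on log2(FPKM + 0.1) with a Benjamini-Hochberg adjusted p under 0.01 and at least a 2-fold change. Of all 15199 genes tested, 21.3% were called, 14.2% higher and 7.09% lower. Cultures and tumors differ in host cells, growth conditions and sampling together, and these cannot be told apart. In bulk samples such as these, fewer cells of a type and less RNA per cell cannot be told apart either.

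Csf1 was at 79.3, 66.8, 72.9, 70.4 and 82.4 FPKM in these 5 tumors, below every culture (log2 fold change -1.03, SE 0.09, adjusted p = 1.1e-05), and -0.99, under 2-fold, without replicate 2. Csf2 was at 0.428 to 1.04 FPKM and Csf3 at 1.11 to 2.60, both above every culture, with log2 fold changes on the pseudocount scale of 2.05 (SE 0.30, adjusted p = 0.000458) and 2.94 (SE 0.32, adjusted p = 5.9e-05). With 1 FPKM added in place of 0.1 the Csf2 value was 0.69 and no longer 2-fold. Il34 was at 17.4 to 22.9 FPKM, a log2 difference of 0.57 (SE 0.12, adjusted p = 0.00307) that stayed under 2-fold. The ligands therefore moved in opposite directions from culture to tumor, Csf1 down and Csf2 and Csf3 up. Csf1r reached 31.0 to 46.1 FPKM, 21.5-fold the cultures (log2 4.43, SE 0.13, adjusted p = 9.3e-09). Csf2ra was at 11.9 to 17.9 FPKM, Csf2rb at 6.39 to 13.2 and Csf3r at 2.80 to 4.74, each called higher (limma adjusted p = 3e-09, 2.2e-08 and 8.1e-08), with no fold given since all cultures were listed at 0.

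The 3 baseline tumors showed the same arrangement. Csf1 was at 74.5, 76.8 and 75.1 FPKM (log2 -1.0, SE 0.05, adjusted p = 4.1e-06, and -0.98 to -1.0, just under 2-fold, without culture 1 or 2 or baseline tumor 1 or 3; limma adjusted p = 0.0374 with all groups in 1 fit, which ends the call) and Csf1r at 32.5, 36.2 and 16.8 (14.7-fold the cultures, log2 3.88, SE 0.26, adjusted p = 1.8e-05). Csf2ra, Csf2rb and Csf3r ranged over 10.1 to 19.3, 5.06 to 8.86 and 1.67 to 4.26 FPKM and were called. In all, 5 of the 8 genes were called in this comparison, where 15.8% of 15217 genes were, 12.1% higher and 3.75% lower. Csf2 and Csf3 did not reach the filter of a 0.5 FPKM mean in either group, and for them the exact permutation test gave p = 0.1, the smallest that 3 samples against 3 allow. Il34 was at 21.1, 17.7 and 22.5 FPKM, a log2 difference of 0.67 (SE 0.11, adjusted p = 0.00183), again under 2-fold.

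The summed level of 13 macrophage and monocyte markers was 7.50 to 9.09 FPKM in cultures, with 5 of the 13 (Adgre1, Itgam and the 3 complement C1q genes) listed at 0 in all 3, against 1174 to 1606 in isotype control tumors after 2 doses and 548 to 1214 in baseline tumors. Spi1, which encodes PU.1, and Il1b were also listed at 0 in the cultures. The 10 T and NK cell markers summed to 0.0121 to 0.0503 FPKM in cultures, with 6 listed at 0. A list of 8 epithelial markers meant to follow the carcinoma cells summed to 0.690 to 0.825 FPKM in the cultures, with 0 of 8 reaching a mean of 0.5, so it does not track MC-38 cells here. The cultures expressed fibroblast-list genes instead, at a sum of 147 to 153. Of the pathway lists, isotype control tumors after 2 doses had 3 of 7 tested relatives called higher than cultures and 1 lower, the Kit ligand Kitl (log2 -2.25), with 11 of 20 signalling genes, 4 of 10 lineage transcription factors and 4 of 13 inducers called higher. Baseline tumors had 3 relatives called higher and 1 lower of 7, 11 of 20 signalling genes and 5 of 10 transcription factors higher, and 2 inducers higher and 1 lower, Ptgs2 (-1.59), of 12. No marker of the carcinoma cells was therefore at hand to follow their share of a tumor, and its part in the lower Csf1 of tumors was not tested.

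After 2 doses of PD-1 Ab the 4 receptors were higher and Csf3 was lower, whereas Csf1, Csf2 and Il34 were not called. That is 5 of the 8 genes, where 5.3% of 15062 genes were called, 5.03% higher and 0.272% lower, and the median log2 fold change of all genes was -0.041. In each of the 5 called genes the ranges of the 2 groups did not overlap. With all tumor groups in 1 fit, without the cultures, Csf3 (limma adjusted p = 0.0104) and Csf2ra (0.0417) were no longer called.

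Csf1r, the receptor of Csf1 and Il34, was at 107, 147, 135, 129 and 57.3 FPKM after PD-1 Ab and at 40.5, 37.4, 31.0, 45.1 and 46.1 after isotype control (log2 fold change 1.46, SE 0.23, adjusted p = 0.00182). Replicate 5 was the lowest PD-1 Ab tumor by a wide margin and still lay above every control. Csf2rb, the signalling chain of the GM-CSF receptor, was at 25.2, 35.9, 33.7, 27.8 and 17.9 FPKM against 9.16, 9.96, 6.39, 13.2 and 9.69 (log2 1.52, SE 0.21, adjusted p = 0.00117). Csf2ra, its ligand-binding chain, was at 40.2, 51.0, 42.4, 24.3 and 27.7 FPKM against 11.9, 14.2, 12.4, 17.9 and 17.6 (log2 1.29, SE 0.20, adjusted p = 0.00197). Both chains of the receptor were thus higher in every treated tumor than in any control. Csf3r was at 15.7, 19.8, 20.4, 15.7 and 6.62 FPKM against 3.22, 4.23, 2.80, 4.74 and 3.49, the largest receptor difference of the 4 (log2 1.98, SE 0.28, adjusted p = 0.00122). Csf2rb2 was at 10.7 to 26.8 FPKM against 2.86 to 5.95 (log2 2.04, SE 0.24, adjusted p = 0.000885). Without PD-1 Ab replicate 5 the 4 receptor log2 fold changes were 1.70 for Csf1r, 1.38 for Csf2ra, 1.67 for Csf2rb and 2.26 for Csf3r.

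**Figure D2:**
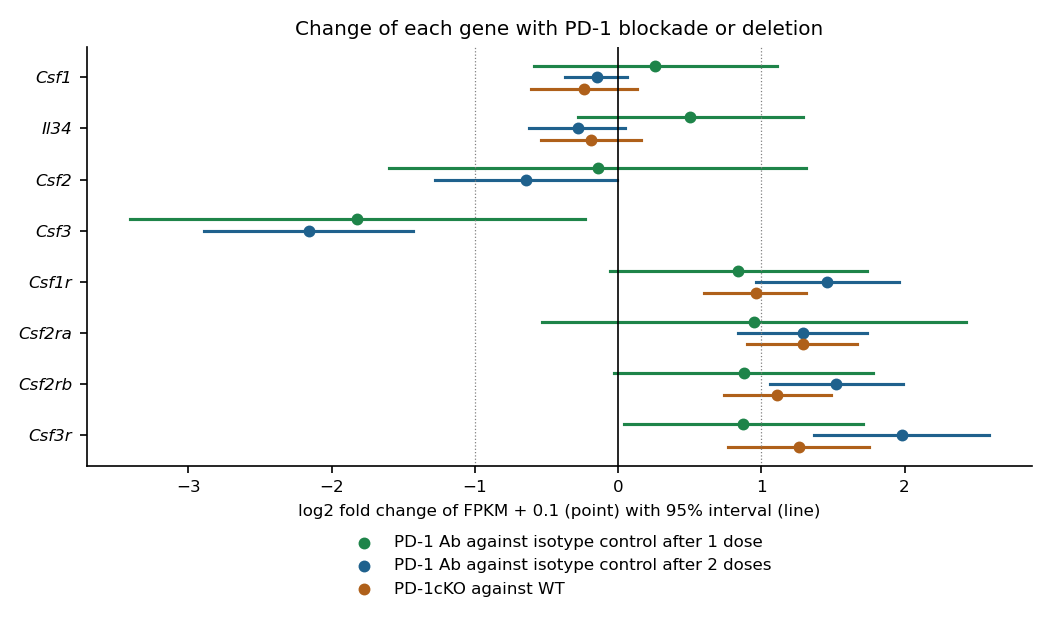
Log2 fold change of log2(FPKM + 0.1) for each gene, with its 95% interval, for PD-1 Ab against isotype control after 1 dose, the same after 2 doses, and PD-1cKO against WT; dotted lines mark a 2-fold difference. The 4 receptors lie right of 0 in the comparisons after 2 doses and in PD-1cKO, Csf3 lies at -2.16 after 2 doses, and Csf2 and Csf3 have no point for PD-1cKO because they were below the filter.

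Csf3 was the only ligand called. It was at 0.254, 0.180, 0.332, 0.527 and 0.142 FPKM after PD-1 Ab and at 2.60, 1.51, 1.11, 1.13 and 1.70 after isotype control (log2 -2.16, SE 0.33, adjusted p = 0.00172). The treated tumors lay within the range of the cultures and baseline tumors, 0.0666 to 0.493 FPKM, apart from the tumor at 0.527. With 1 FPKM added in place of 0.1 the log2 difference was -1.0, just under 2-fold. Csf2 was at 0.449, 0.635, 0.586, 0.349 and 0.377 FPKM against 1.04, 0.428, 0.976, 0.748 and 0.902, with overlapping ranges (log2 -0.64, 95% interval -1.28 to -0.01, adjusted p = 0.121). Csf1 was at 59.3 to 77.2 FPKM against 66.8 to 82.4 (log2 -0.15, 95% interval -0.37 to 0.06, adjusted p = 0.261) and Il34 at 12.4 to 21.5 against 17.4 to 22.9 (log2 -0.28, 95% interval -0.62 to 0.05, adjusted p = 0.191). The intervals of the 2 Csf1r ligands exclude a 2-fold difference in either direction.

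Levels of infiltrating cell markers moved with the receptors. The 13 macrophage and monocyte markers summed to 1932 to 4863 FPKM after PD-1 Ab against 1174 to 1606, with 9 of 13 called higher, among them Ly6c2 (log2 1.98), Lyz2 (1.78) and Adgre1 (1.56). The 10 T and NK cell markers summed to 71.0 to 223 FPKM against 12.1 to 30.8, with 9 of 10 called higher. Of 4 adipose markers 1 was called higher, with sums of 39.1 to 828.7 FPKM against 15.3 to 126, and of 8 dendritic cell markers 3 were. Of the markers tested for mast cells, basophils and eosinophils 3 of 4 were called higher, of those for endothelium 1 of 4 and for skeletal muscle 1 of 4, and of those for fibroblasts 0 of 8 and for skin 0 of 3. PD-1 Ab replicate 5, the lowest tumor for Csf1r, Csf2rb and Csf3r, had the lowest macrophage sum, 1932 against 3607 to 4863 in the other 4, and the lowest T and NK sum. The neutrophil list was mixed. Its 12 markers summed to 3.68 to 16.1 FPKM against 3.34 to 18.9, and 6 passed the filter. Of these 6, 3 had a positive log2 fold change, with a median of 0.02 and a range of -2.0 to 1.3. Only 1 was called, S100a8, which was lower (log2 -2.0, limma adjusted p = 0.00836). Csf3r was thus 3.94-fold higher while no neutrophil marker was called higher. The part of cell numbers in the receptor differences was not tested.

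Among the other genes of the pathway, to be read against the 5.3% of all genes called, 2 of 8 tested relatives of the family were called higher, Csf2rb2 and Kit (log2 1.63), the receptor of stem cell factor. Il3 was listed at 0 in all 46 samples, Il5 and Il5ra were at most 0.430 and 1.54 FPKM in any sample, and Il3ra, the alpha chain for interleukin 3, was at 10.7 to 14.5 FPKM after PD-1 Ab against 5.96 to 11.0 (log2 0.57, adjusted p = 0.0303). Of 20 signalling genes downstream of the receptors 6 were called higher, with a list median of 0.68, among them the leukocyte PI3-kinase subunit Pik3cd (1.44), the adaptor Tyrobp (1.35) and the lipid phosphatase Inpp5d (1.25). Of the 11 myeloid and lymphoid lineage transcription factors tested 6 were called higher, with a median of 1.09, among them Gfi1 (2.01) and Id2 (1.67). Of the 13 tested inducers of CSF transcription, such as Il1b and Tnf, 0 were called and the median was -0.07.

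After 1 dose none of the 8 genes was called, where 0.0% of 14556 genes were; 895 genes had an unadjusted p under 0.05, Csf3 (p = 0.028) and Csf3r (p = 0.042) among them. Csf3r was at 5.09, 8.97, 5.39, 5.69 and 8.47 FPKM after PD-1 Ab, above all 5 controls at 1.15, 4.49, 4.87, 4.45 and 4.68 (log2 0.87, SE 0.39, adjusted p = 0.786). Csf1r was at 46.7 to 75.8 FPKM against 9.19 to 52.0 (log2 0.84, SE 0.41, adjusted p = 0.825). Csf3 was at 1.71, 0, 1.05, 0.344 and 0.211 FPKM against 0.648, 3.56, 1.20, 1.47 and 2.74 (log2 -1.82, SE 0.73, adjusted p = 0.724). The lowest control for the receptors and for Csf1 and Il34 was replicate 1, the tumor rich in mitochondrial RNA, at 15.7 FPKM of Csf1 where the other 4 were at 59.1 to 80.1. With that tumor left out, the limma log2 differences were 0.39 for Csf1r (adjusted p = 0.232), 0.20 for Csf2ra (0.754), 0.44 for Csf2rb (0.218), 0.49 for Csf3r (0.194), -2.13 for Csf3 (0.187) and -0.18 for Csf1 (0.318), and no member was called, where 7 of 14606 genes were.

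In the pathway and marker lists 0 genes were called after 1 dose. The difference between the effects of 2 doses and 1 dose was tested directly and was not called for any member, with 0.0% of 15289 genes called. It was largest for Csf3r (log2 1.10, unadjusted p = 0.037, limma adjusted p = 0.623), and the adjusted p of the other 7 was 0.625 or more. These values include 1-dose isotype control replicate 1, and the median of all genes was -0.274. Without that tumor the median was 0.015 and 0 of 15307 genes were called. Over the alternatives the difference was 0.45 to 1.07 for Csf1r, 0.03 to 1.09 for Csf2ra and 0.47 to 1.08 for Csf2rb. It was 0.98 to 1.49 for Csf3r, and the lowest limma adjusted p of the 4 receptors was 0.13. Between the isotype control groups, Il34 was above every 1-dose tumor in all 5 2-dose tumors (log2 0.80, limma adjusted p = 0.61; 0.41, adjusted p = 0.214, without 1-dose replicate 1), and no member was called, with 0.0% of 14445 genes called. At an unadjusted p under 0.05 these comparisons had 1182 and 996 genes.

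In PD-1cKO tumors, 3 receptors were called higher than in WT, Csf2ra, Csf2rb and Csf3r, and 0 ligands were. Csf2 and Csf3 did not reach the filter, so 3 of the 6 tested genes were called, where 8.07% of 15075 genes were, 4.2% higher and 3.87% lower. The median log2 fold change of all genes was -0.202, and the log2 values here are read against that shift. Scaling by the median of ratios brought it to -0.048 and the split of called genes from 633 higher and 584 lower to 916 and 336.

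Csf2ra was at 17.6 to 53.5 FPKM (median 27.7, n = 10) in PD-1cKO and at 7.09 to 15.7 (median 11.2, n = 10) in WT, so that the groups did not overlap (log2 1.29, SE 0.19, adjusted p = 0.000423). Csf2rb was at 17.0 to 56.2 FPKM (median 30.3) against 8.73 to 18.4 (median 12.6), with 8 of 10 above every WT tumor (log2 1.11, SE 0.18, adjusted p = 0.000707). Csf3r was at 2.59 to 10.6 FPKM (median 4.42) against 1.60 to 3.45 (median 1.87), with 7 of 10 above every WT tumor (log2 1.26, SE 0.24, adjusted p = 0.00108). Csf1r was at 78.6 to 188 FPKM (median 159) against 46.02 to 106 (median 71.7), with 8 of 10 above every WT tumor. Its log2 difference of 0.96 (SE 0.17, adjusted p = 0.000834) was 1.94-fold, just under the 2-fold limit, and was 1.12 with samples scaled by the median of ratios. It also passed 2-fold without WT replicate 5 (1.03), PD-1cKO replicate 2 (1.01) or PD-1cKO replicate 9 (1.05). Csf2rb2 was at 5.80 to 35.1 FPKM against 2.08 to 9.30 (log2 1.57, SE 0.27, adjusted p = 0.000726).

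On the ligand side, Csf1 was at 21.6 to 85.4 FPKM (median 40.0) against 38.2 to 59.8 (median 43.8), with the lowest and the highest tumor of the 20 both in PD-1cKO (log2 -0.24, 95% interval -0.61 to 0.13, adjusted p = 0.265). Il34 was at 5.95 to 18.9 FPKM (median 13.01) against 9.77 to 15.98 (median 13.9) (log2 -0.19, 95% interval -0.54 to 0.16, adjusted p = 0.357). Csf2 was at 0.0356 to 0.858 FPKM against 0.131 to 0.579 (log2 -0.23, two-sided permutation p = 0.475). Csf3 was at 0 to 0.187 FPKM, with 2 tumors listed at 0, against 0.0180 to 1.98 (log2 -0.61, two-sided permutation p = 0.169). WT tumors held little Csf3, with a median of 0.1003 FPKM, where isotype control tumors after 2 doses held 1.51 at the median. These 2 values come from studies whose FPKM are on different scales, and the scaled medians were 0.105 and 1.24.

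Sample identifiers in the knockout study fall into 3 runs of consecutive numbers: 7 PD-1cKO tumors and no WT tumor in the first, 1 PD-1cKO and 9 WT tumors in the second, and 2 PD-1cKO and 1 WT tumor in the third. The labels do not call these runs batches. Within the second, the 1 PD-1cKO tumor was above all 9 WT tumors for Csf2ra (37.3 against 7.09 to 15.7 FPKM), Csf2rb (30.3 against 8.73 to 18.4), Csf3r (10.6 against 1.60 to 3.45) and Csf1r (164 against 46.02 to 106). In the third, Csf2ra (17.6 and 20.3 against 10.9 FPKM), Csf2rb (17.0 and 20.9 against 13.4) and Csf3r (2.59 and 4.67 against 1.91) were higher in both PD-1cKO tumors, and Csf1r was at 78.6 and 108 against 84.6. With the run as a covariate 0 of the 15075 genes were called, the members included. The log2 values were then 1.31 for Csf2ra (limma adjusted p = 0.0257), 0.93 for Csf2rb (0.0383), 1.68 for Csf3r (0.0257) and 0.77 for Csf1r (0.0594).

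Marker levels again moved with the receptors. The macrophage and monocyte sum was 1746 to 5954 FPKM in PD-1cKO against 1071 to 1835 in WT, with 5 of 13 markers called higher, among them Lyz2 (log2 1.64), Cd68 (1.32) and C1qc (1.22). T and NK markers summed to 40.6 to 121 FPKM against 14.4 to 55.1, with 9 of 9 tested called higher. Of 8 fibroblast markers 4 were called higher, with sums of 2280 to 12500 against 1129 to 2338. Of the tested dendritic cell markers 0 of 7 were called, of those of mast cells, basophils and eosinophils 1 of 6, and of those of endothelium, adipose tissue and skeletal muscle 0 of 4 each. Of the neutrophil list, 4 of 10 tested markers were called higher, among them the granule genes Ngp (2.98) and Camp (2.83), with sums of 6.47 to 460 FPKM against 3.48 to 15.0. The 3 PD-1cKO tumors with the highest Csf3r, replicates 4, 7 and 8 at 7.96, 10.1 and 10.6 FPKM, had neutrophil sums of 128, 460 and 98.0 where the other 7 had 6.47 to 25.3, and macrophage sums of 5954, 4834 and 5547. Which cells carried the Csf3r RNA was not tested.

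Of the 7 tested relatives 1 was called higher, Csf2rb2, and Il3ra was at 7.11 to 22.2 FPKM against 4.91 to 7.27 (log2 0.97, adjusted p = 0.000999), just under 2-fold. Of the 20 signalling genes 3 were called higher, Tyrobp (1.27), Cish (1.09), which encodes a STAT5-induced inhibitor of cytokine signalling, and Pik3cd (1.00), and the list median was 0.38. Of the 12 lineage transcription factors 5 were called higher, with a median of 0.99, among them Gfi1 (1.55) and Cebpa (1.45). Of the 12 tested inducers 1 was called, Il1b, at 4.62 FPKM ± 1.96 against 9.61 ± 3.72 (SD, n = 10 each; log2 -1.16, adjusted p = 0.00753), and it was lower.

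The effects of 2 doses of antibody and of PD-1cKO were compared by the difference of the 2 log2 fold changes. None of the 8 members was called, where 0.0914% of 16404 genes were, 0.0792% with a positive and 0.0122% with a negative difference. The median difference of all genes was 0.234, and 0.03 with median-of-ratios scaling, and the values here are read against that shift. The difference was 0.00 for Csf2ra (95% interval -0.63 to 0.63), 0.41 for Csf2rb (-0.22 to 1.04), 0.50 for Csf1r (-0.11 to 1.12) and 0.72 for Csf3r (-0.10 to 1.54), with limma adjusted p of 0.366 or more. Csf3 had the largest difference, -1.56 (95% interval -2.85 to -0.26, limma adjusted p = 0.241). The upper ends of these intervals correspond to a 1.55-fold difference for Csf2ra and a 2.91-fold difference for Csf3r, so the test does not show equal effects.

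The balance of receptor to ligand was computed within each sample, which removes scaling between samples apart from the 0.1 FPKM added in the tested log2 ratios, which matters where a ligand is as low as Csf2 and Csf3. Csf1r per unit of summed Csf1 and Il34 was 0.0107 in cultures, 0.298 in baseline tumors, 0.430 after 2 doses of isotype control and 1.44 after 2 doses of PD-1 Ab, as group means, and 1.22 in WT and 3.08 in PD-1cKO. Of 36 ratio comparisons (6 ratios in 6 comparisons) 13 had an adjusted p under 0.05 by two-sided permutation, exact for groups under 10. After 2 doses of PD-1 Ab, 5 of 6 ratios were higher, each with the smallest p that 5 against 5 allow (exact p = 0.00794, adjusted p = 0.0238). They were Csf1r to Csf1 (log2 difference 1.62), Csf1r to Il34 (1.75), Csf2ra to Csf2 (1.93), Csf2rb to Csf2 (2.17) and Csf3r to Csf3 (4.14). With 1 FPKM added the last was 2.75, and 1.20 in place of 1.86 in PD-1cKO. In PD-1cKO the same 5 were higher, by 1.20, 1.15, 1.52, 1.35 and 1.86 (permutation adjusted p = 0.0036 for the first 4 and 0.00374 for the last). After 1 dose only Csf1r to Csf1 passed (0.59, exact adjusted p = 0.0238); this ratio was -0.37 to 0.28 on the log2 scale after PD-1 Ab and -0.87 to -0.62 in the controls, replicate 1 included. The Il34 to Csf1 ratio did not pass after PD-1 Ab for 2 doses (-0.13, exact adjusted p = 0.45) or in PD-1cKO (0.05, permutation adjusted p = 0.771). Between the isotype control groups, Csf1r to Il34 was lower after 2 doses (-0.50, exact adjusted p = 0.0238) and Il34 to Csf1 higher (0.33, exact adjusted p = 0.044), and neither passed with 1 FPKM added (exact adjusted p = 0.0643 and 0.133). Tumors against cultures could not pass with groups this small (smallest adjusted p = 0.0643), although the receptor-to-ligand ratios were higher by 2.28 to 5.45 on the log2 scale in isotype control tumors after 2 doses.

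**Figure D3:**
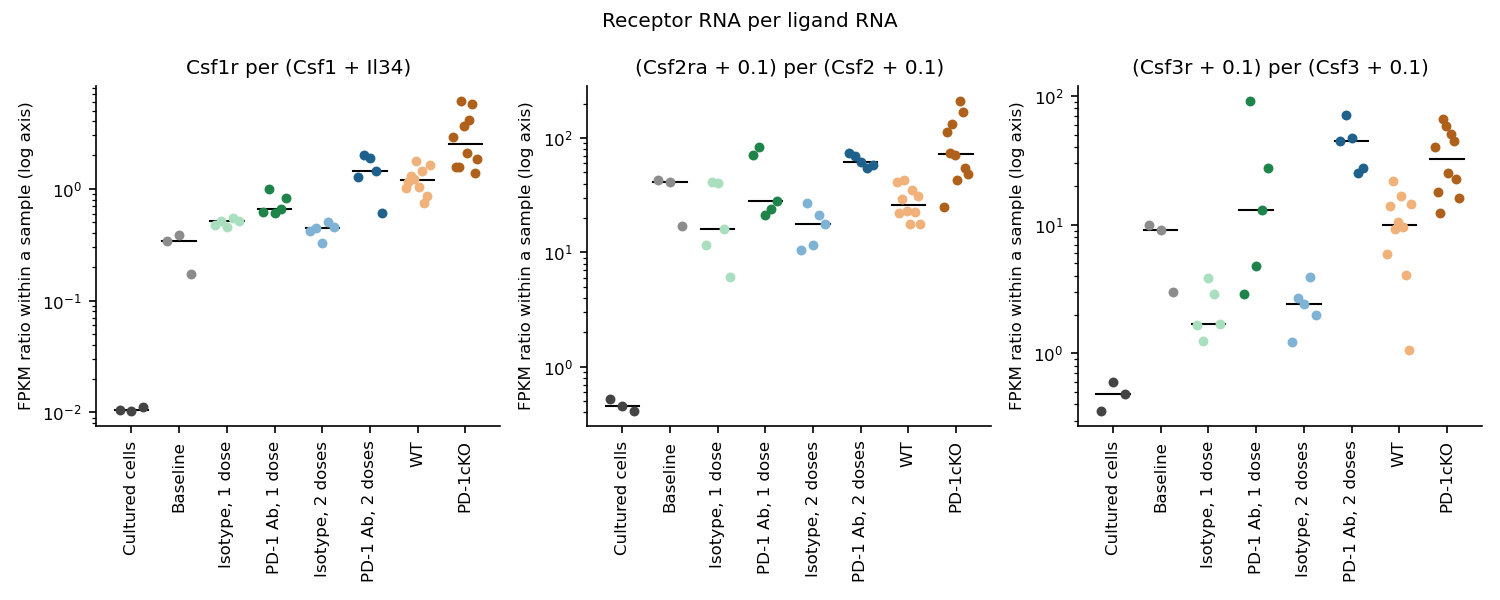
Receptor FPKM divided by ligand FPKM within each sample, on a log axis, for Csf1r over Csf1 plus Il34, Csf2ra over Csf2 and Csf3r over Csf3 (0.1 FPKM added to both sides in the last 2), by group; points are samples and lines medians. Csf1r over its ligands rises from about 0.0107 in cultures to 1.44 as the mean after 2 doses of PD-1 Ab and 3.08 in PD-1cKO tumors, and most tumors of these 2 groups lie above their controls.

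Over the 8 groups, the order of mean FPKM put cultures first for Csf1 (151 ± 6.79) and last for all 4 receptors. Csf1 in cultures and baseline tumors (75.4 ± 1.18) did not overlap, and all 6 later neighbours in the order did, down to PD-1cKO at 41.3 ± 17.5. For Csf1r the order ran PD-1cKO (141 ± 38.5), PD-1 Ab after 2 doses (115 ± 35.5), WT (71.8 ± 17.0), PD-1 Ab after 1 dose (58.5 ± 12.5), isotype control after 2 doses (40.0 ± 6.13) and 1 dose (37.2 ± 16.7), baseline (28.5 ± 10.3) and cultures (1.75). Of the neighbours in this order, only PD-1 Ab after 1 dose and isotype control after 2 doses, and baseline and cultures, had separate ranges. Both orders include isotype control replicate 1 after 1 dose. Without it, Csf1r in that group was at 36.9 to 52.0 FPKM (44.2 ± 6.84). The group then ranked above isotype control after 2 doses and did not overlap baseline (16.8 to 36.2). Csf1 was then at 59.1 to 80.1 FPKM (72.7 ± 9.49). That made PD-1 Ab after 1 dose (60.2 to 67.2) and WT (38.2 to 59.8) neighbours without overlap for Csf1. Csf2ra was highest after 2 doses of PD-1 Ab (37.1 ± 11.0), followed by PD-1cKO (29.6 ± 10.8), and Csf2rb was highest in PD-1cKO (29.3 ± 11.1), followed by PD-1 Ab after 2 doses (28.1 ± 7.13); these neighbours overlapped. Csf3r was highest after 2 doses of PD-1 Ab (15.7 ± 5.50) and 6.72 ± 1.85 after 1 dose. For Csf2, Csf3 and Il34 all neighbouring groups overlapped. Scaling by the median of ratios moved PD-1cKO to first place for Csf2ra and to second for Csf3r and kept cultures in the places given. It also made WT lowest for Csf1 (scaled mean 49.0, PD-1cKO 50.7). For Csf1r it put isotype control after 1 dose (33.7) above 2 doses (33.1).

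The 2 beta chains were also set against each other within samples. Csf2rb2 per unit of Csf2rb was 0.469 (range 0.448 to 0.518) after 2 doses of isotype control and 0.680 (0.597 to 0.747) after PD-1 Ab, without overlap. In WT it was 0.371 and in PD-1cKO 0.512, with overlapping ranges. These are descriptions, since the 2 genes share sequence.

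Among the 43 tumors, deviations from group means on the log2 scale placed the receptors together. Pearson's r between pairs of the 4 receptors was 0.578 to 0.885, that of Csf1 with Il34 was 0.511, and ligand with receptor gave -0.505 to 0.198. The highest of these, Csf1 with Csf2ra, was 0.018 without isotype control replicate 1 after 1 dose and 0.649 over the 23 tumors of the antibody study with it. These points share libraries and cell content. The most similar of 13228 genes to Csf1r were Il4ra (r = 0.944), Sh3tc1 (0.905) and Adgre5 (0.891). For Csf2rb they were Csf2rb2 (0.929), Syk (0.905) and Sipa1l2 (0.89), for Csf2ra Rgl2 (0.892), Atp13a2 (0.891) and Mical1 (0.887), and for Csf3r Rassf2 (0.917), Ptafr (0.908) and Ace (0.899). For Csf1 they were Tent4a (0.874), Mgat4b (0.836) and Slc12a7 (0.834), and for Il34 Erbb2 (0.884), Tars2 (0.842) and Nfkb2 (0.824). Of all these members, ligands and receptors, only Csf2rb had a receptor chain of the family among its 3 nearest genes. None had a listed macrophage marker there. Csf2 and Csf3 were too low to enter, with means under 1 FPKM. Csf3r followed the macrophage markers in both studies (r = 0.859 over 23 and 0.887 over 20 tumors). Its r with the neutrophil markers was 0.892 in the knockout study and 0.19 in the antibody study. These r use the mean deviation of the markers averaging 1 FPKM or more over the tumors. That was 13 of 13 for macrophages and 7 of 12 for neutrophils. Csf1r followed the macrophage markers with r = 0.899 and 0.806. In the knockout study the fibroblast markers were as close, with r = 0.839 for Csf1r and 0.895 for Csf3r, and the dendritic cell markers gave 0.828 and 0.777. For Csf1r and Csf3r in the antibody study, the dendritic cell markers gave 0.845 and 0.763. The T and NK markers gave 0.775 and 0.726 there, and the fibroblast markers 0.263 and 0.275. Over all 43 tumors, r of Csf2ra and Csf2rb was 0.724 and 0.838 with dendritic cell markers. It was 0.604 and 0.809 with macrophage markers.

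**Figure D4:**
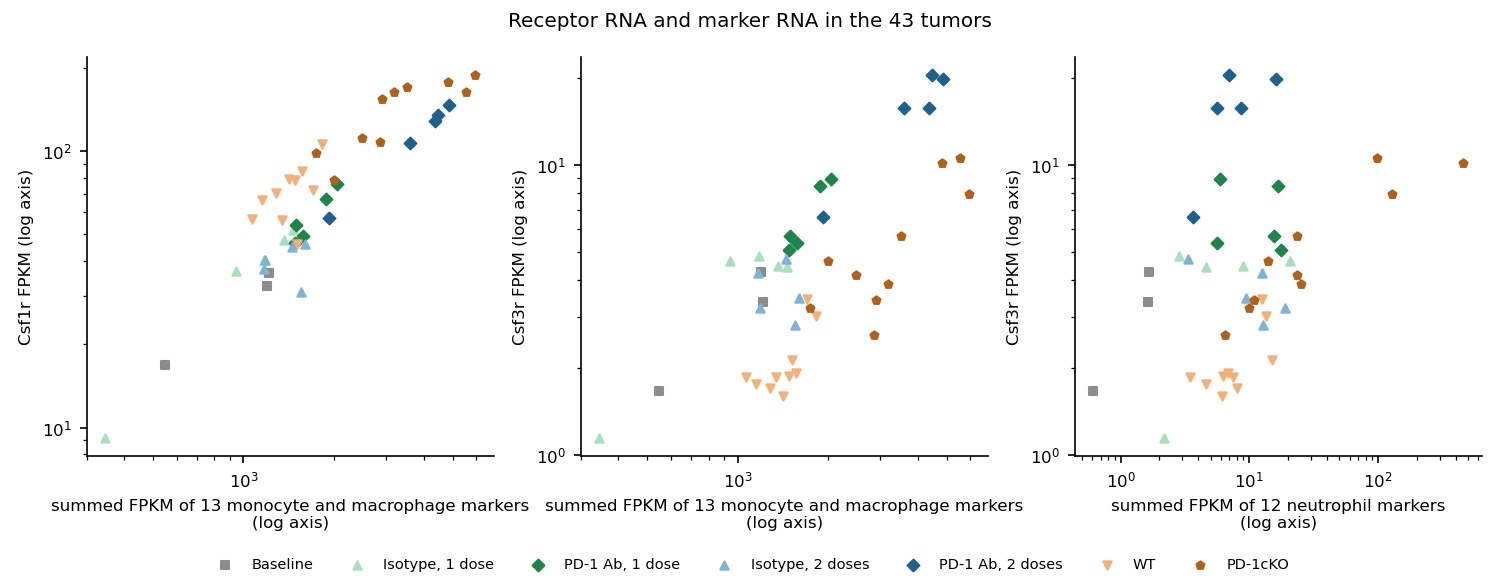
Receptor FPKM against the summed FPKM of marker genes in each of the 43 tumors, both axes log, coloured by group: Csf1r and Csf3r against 13 macrophage and monocyte markers, and Csf3r against 12 neutrophil markers. The macrophage sums run from 345 to 5954 with both receptors higher at higher sums, and in the last panel 3 PD-1cKO tumors stand far right at sums of 98.0 to 460.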

How the data were processed

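RNA was sequenced from 43 tumors and 3 cultures. The authors prepared stranded total RNA libraries after ribosomal RNA depletion, sequenced 50-base paired ends, aligned them to GRCm38 with the Omicsoft aligner in Array Studio and deposited FPKM per Ensembl gene; strand use in counting is not given in the sources used here, and the authors' read counts were not analysed here. The methods give a range of mapped reads over all samples, and the depth of each library is not given in the sources used here. Groups came from the sample labels. For each comparison, log2(FPKM + 0.1) of every gene that averaged 0.5 FPKM or more in 1 of its groups was fitted with limma 3.58.1 (R 4.3.3, trended empirical Bayes) and called at a Benjamini-Hochberg adjusted p under 0.01 and at least 2-fold. P-values set a difference of group means against the spread between the samples of a group. In the knockout study they do not separate genotype from identifier run, except where the run was a covariate. Genes below the filter and ratios within samples were tested by two-sided permutation (exact under 10 per group, otherwise 100000 resamples). The members and gene lists were chosen with earlier results of these data known. Members, Csf2rb2, Il3, Il3ra, Il5 and Il5ra were always named, with up to 3 called genes of largest log2 change per list and comparison and the 3 genes most correlated with each member; others were named after their values were seen, and 1 gene that the rule names is not reported here. Sequence came from RefSeq tables (GRCm38.p6), and Csf3, Il34 and Csf2rb were not in the promoter table. Same-numbered samples of compared groups correlated at -0.209 to 0.16, and the labels do not pair them. Such correlations cannot exclude a factor shared by samples of the same number. Alternatives covered the pseudocount, the filter, the scaling, a joint fit, the run of identifiers, a replicate block and leaving out each sample. The fit was tested on simulated data.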

Additional observations from a re-analysis of the deposited data

Results flagged for a closer look

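The highest or the lowest sample lay farther from the rest of its group than Dixon's 95% critical value allows in 6 of 48 groups of values tested (8 genes in the 6 groups with 5 to 10 samples), where chance gives about 1 in 20. Csf1 was at 85.4 FPKM in PD-1cKO replicate 3, with the next tumor at 49.4. Csf3 was at 1.98 FPKM in WT replicate 9, with the next at 0.38, and the same tumor had the lowest Il34 of its group, 9.77 FPKM against 12.7 in the next. Csf2rb was at 56.2 FPKM in PD-1cKO replicate 4, with the next at 31.9. Isotype control replicate 1 after 1 dose, the tumor with 54.6% of its FPKM in mitochondrial genes, was the lowest of its group at 3.6 FPKM of Il34 (next 12.7) and 1.15 FPKM of Csf3r (next 4.45).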

How the results depend on the processing

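Among the results that count called members or ratios, those after 2 doses of PD-1 Ab fell from 5 to 3 with all tumor groups in 1 fit. They fell to 2 with the replicate number as a block. Csf3 (adjusted p = 0.0104 and 0.0132), Csf2ra (0.0417 and 0.0143) and, in the block, Csf1r (0.0109) had limma values above 0.01. The labels do not pair samples by number. Those in PD-1cKO fell from 3 to 0 with the identifier run as a covariate, which leaves few samples in which run and genotype differ. The 13 ratios fell to 5 without replicate 1, 2, 3, 4 or 5 (range 5 to 5), since smaller groups raise the smallest exact p. The block moved the count of no other comparison by over 1.5 times; in isotype control tumors against cultures it was 6 in place of 7. Over all genes, calls after 2 doses fell from 799 to 450 with no filter and to 316 with the block. In PD-1cKO they fell from 1217 to 617 with 1 FPKM added. With the identifier run as a covariate there they fell to 0 (6533 genes at an unadjusted limma p under 0.05). Those after 1 dose rose from 0 to 10 with all tumor groups in 1 fit. They rose to 11 with median-of-ratios scaling and without isotype control replicate 1.

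Some values that were not called changed sign. For PD-1 Ab after 1 dose, Csf1 (0.26) was -0.02 with upper-quartile scaling, -0.15 with median-of-ratios scaling and without isotype control replicate 1, and -0.18 to 0.40 when 1 sample was left out, and Csf2 ranged from -0.74 to 0.08. For isotype control after 2 doses against 1, leaving out 1 sample gave -0.39 to 0.18 for Csf3, -0.14 to 0.48 for Csf1r, -0.09 to 0.97 for Csf2ra, -0.39 to 0.23 for Csf2rb and -0.34 to 0.16 for Csf3r. Median-of-ratios scaling gave -0.22 for Csf2rb and for Csf3r there, upper-quartile scaling -0.21 for both, and median-of-ratios scaling with the first 1-dose control left out, chosen after seeing the data, -0.14 for Csf1r, -0.08 for Csf2ra, -0.38 for Csf2rb and -0.33 for Csf3r. For the antibody effect less the PD-1cKO effect, Csf1 was -0.13 and -0.18 under the 2 scalings and 0.00 to 0.21 with 1 sample left out, and Csf2ra was 0.01 with 1 FPKM added and -0.13 to 0.14. For 2 doses less 1 dose, the added alternative gave 0.01 for Csf1 and 0.07 for Csf2, and leaving out 1 sample -0.56 to 0.03 for Csf1, -0.83 to 0.09 for Csf2 and -0.91 to 0.13 for Csf3. The ratio of Csf2ra to Csf2 between isotype control groups was 0.29 with 1 FPKM added and -0.54 to 0.30 with 1 replicate left out, Csf3r to Csf3 there -0.11 to 0.33, and Il34 to Csf1 in PD-1cKO 0.00 to 0.18. The cause was not tested.

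The depth of each library is not given in the sources used here, so the counting error of Csf2 and Csf3 near 0.1 FPKM was not computed. Csf1 against cultures was near the 2-fold limit, at -0.95 to -1.06 in isotype control tumors over the alternatives and -0.98 to -1.04 in baseline tumors, and so was Csf3r in PD-1cKO at 1.00 with 1 FPKM added. Csf1r in PD-1cKO passed 2-fold under both scalings (1.12 and 1.13) and was 0.77 with the identifier run as a covariate.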
